A study of Mus musculus with 4 samples.

Results

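The FAIRE-positive regions at the genes of YAP, TAZ, the TEAD factors and their close partners were examined in EpRas cells. All peaks of the 4 lists were taken that lay in the mm10 gene body, or within 50 kb upstream of the gene start, of 10 genes: Yap1, Wwtr1 (which encodes TAZ), Tead1, Tead2, Tead3, Tead4, Amotl2, Ankrd1, Lats2 and Vgll4. Merging the peaks of the 4 lists gave 62 regions at these genes, of 35796 regions in all.

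EpRas is a mouse mammary gland epithelial line that expresses active H-Ras, and every library came from this 1 line. FAIRE-seq sequences the DNA that is not crosslinked to protein, and so marks accessible chromatin. The libraries were collected at day 4 from cells given control siRNA (siControl) and left untreated, from siControl cells given TGF-β3 at 1 ng/ml, and from cells given the same TGF-β together with siEtv4/5 set 1 or set 2, which are separate siRNAs against the ETS factors Etv4 and Etv5. Each group had 1 peak list, which may combine the reads of biological replicates, and the word library is used for the reads of such a list. For this reason there was no spread between replicates, no difference between libraries was tested, and intervals below cover counting error only. In such bulk material, fewer cells with an open site and less opening per cell cannot be told apart.

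YAP and TAZ are transcriptional coactivators that do not bind DNA themselves. They are brought to DNA by TEAD factors, which recognise the letters GGAATG, often at enhancers that also carry AP-1 sites. The Hippo kinases LATS1 and LATS2 phosphorylate YAP and TAZ and keep them in the cytoplasm, and the pathway feeds back on itself, since Lats2 and Amotl2 are both targets of YAP and inhibitors of it. In mammary epithelium, YAP and TAZ are known for sensing cell density and matrix stiffness, and they cooperate with TGF-β signaling and with Ras.

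The deposited lists give each peak a fold enrichment, the signal at the summit (the highest point of the peak) over a local background. Together with the deposited p-value it gave back the whole number of fragments behind each summit. The libraries had 22247 peaks (siControl untreated), 28754 (siControl TGF-β), 22516 (set 1) and 14925 (set 2). Taking siControl TGF-β as 1, the estimated depth of the untreated, set 1 and set 2 libraries was 0.939, 1.06 and 1.27, so the shortest list came from the deepest library. The median fold enrichment of a peak was 8.19, 8.44, 7.91 and 7.15 in the same order. Where a region was not called, the number of fragments that a call would have needed at that place was estimated from the background in the other libraries. The promoters of Etv4 and Etv5 were called in all 4 libraries, which does not check the knockdown because no RNA was measured here. Of 8 mammary epithelial marker genes, 5, 3, 4 and 3 had a called promoter in untreated, siControl TGF-β, set 1 and set 2. Of all coding genes, 36.5%, 38.6%, 34.6% and 27.6% had one. The promoters of Krt8 and Krt14 were called in all 4 libraries and that of Krt18 in all but set 2. Those of Epcam (untreated), Cdh1 (untreated and set 2) and Elf5 (set 1) were called in fewer. Trp63 had no promoter region, and Krt5 had no region at all. At most 1 of 8 promoters of other cell types (Pecam1, siControl TGF-β) and 1 of 4 of fibroblasts (Pdgfra, untreated) was called.

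The regions whose sequence is shown here are those the results turn on. They are the region at the Yap1 promoter, the region of highest fold enrichment at Ankrd1, at Amotl2 and at Vgll4, and 5 others chosen after their values were seen for the size of their difference between libraries or for their motif letters. Each stretch is the 200 bases around the summit, read 5′ to 3′ on the strand of the gene from GRCm38.p6 (mm10). Capitals mark TEAD letters (GGAATG or its reverse complement CATTCC) and AP-1 letters (TGANTCA). The stretches lie at chr9:8003377-8003576 (Yap1, minus strand), chr19:36129328-36129527 (Ankrd1, minus), chr14:57760470-57760669 (Lats2, minus), chr9:102673371-102673570 (Amotl2, plus), chr7:112697141-112697340 and chr7:112700213-112700412 (Tead1, plus), chr3:57512370-57512569 (Wwtr1, minus), and chr6:114861181-114861380 and chr6:114888993-114889192 (Vgll4, minus). Names give the distance of the summit from the gene start, with minus for upstream.
Yap1 +1.1 kb: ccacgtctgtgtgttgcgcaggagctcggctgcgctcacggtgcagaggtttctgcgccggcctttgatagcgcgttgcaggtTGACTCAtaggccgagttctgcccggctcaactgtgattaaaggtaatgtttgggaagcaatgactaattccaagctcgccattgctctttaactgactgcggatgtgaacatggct
Wwtr1 +63.4 kb: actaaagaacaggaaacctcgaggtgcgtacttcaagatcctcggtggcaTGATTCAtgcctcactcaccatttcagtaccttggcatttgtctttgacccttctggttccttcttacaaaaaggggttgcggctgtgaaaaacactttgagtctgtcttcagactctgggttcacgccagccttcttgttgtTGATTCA
Tead1 +17.9 kb: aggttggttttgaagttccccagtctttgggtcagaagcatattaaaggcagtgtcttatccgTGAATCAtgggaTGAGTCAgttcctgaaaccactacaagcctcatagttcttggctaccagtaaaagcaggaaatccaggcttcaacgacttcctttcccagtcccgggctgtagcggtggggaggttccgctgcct
Tead1 +21.0 kb: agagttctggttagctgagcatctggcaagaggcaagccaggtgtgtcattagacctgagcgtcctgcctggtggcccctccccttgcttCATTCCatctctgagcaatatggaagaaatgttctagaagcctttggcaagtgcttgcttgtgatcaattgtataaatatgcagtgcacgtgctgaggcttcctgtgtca
Ankrd1 -9.3 kb: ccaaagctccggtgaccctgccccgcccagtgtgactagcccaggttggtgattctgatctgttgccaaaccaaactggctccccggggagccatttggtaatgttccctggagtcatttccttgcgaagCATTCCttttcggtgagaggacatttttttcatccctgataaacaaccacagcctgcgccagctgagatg
Amotl2 -43.2 kb: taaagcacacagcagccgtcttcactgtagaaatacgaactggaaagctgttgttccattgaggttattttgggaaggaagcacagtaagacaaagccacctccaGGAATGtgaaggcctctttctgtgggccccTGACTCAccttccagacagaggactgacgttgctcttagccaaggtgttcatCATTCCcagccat
Lats2 -2.2 kb: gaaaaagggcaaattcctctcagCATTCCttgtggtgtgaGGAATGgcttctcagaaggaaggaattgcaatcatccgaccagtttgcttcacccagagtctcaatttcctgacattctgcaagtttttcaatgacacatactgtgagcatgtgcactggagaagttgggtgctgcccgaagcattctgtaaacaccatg
Vgll4 +108.7 kb: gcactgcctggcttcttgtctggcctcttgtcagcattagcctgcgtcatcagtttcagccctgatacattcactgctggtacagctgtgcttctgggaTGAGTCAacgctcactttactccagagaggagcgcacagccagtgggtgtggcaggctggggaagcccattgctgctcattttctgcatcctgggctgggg
Vgll4 +80.9 kb: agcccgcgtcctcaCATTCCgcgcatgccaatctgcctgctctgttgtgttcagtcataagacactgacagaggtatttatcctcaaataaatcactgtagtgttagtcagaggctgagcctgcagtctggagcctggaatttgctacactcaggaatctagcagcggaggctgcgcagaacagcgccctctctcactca

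The stretches differ in which letters they carry. The stretches shown for the target and feedback genes Ankrd1, Amotl2 and Lats2 carry TEAD letters, with 2 matches at Lats2 and 2 at Amotl2. An AP-1 match lies between the 2 at Amotl2. The Yap1, Wwtr1 and Vgll4 +108.7 kb stretches carry AP-1 letters and no TEAD letters, while Vgll4 +80.9 kb carries 1 TEAD match and no AP-1 match. As some stretches were chosen for their letters, they do not stand for their genes. TEAD letters were absent at Lats2 -39.7 kb, Amotl2 +1.7 kb and Amotl2 +9.8 kb, and present at Wwtr1 +74.1 kb and +24.9 kb. At Tead1, the stretch at +17.9 kb holds 2 AP-1 matches and the stretch at +21.0 kb holds 1 TEAD match.

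Of the 62 regions, 44 were called in untreated siControl cells (71.0%, against 61.9% of all regions), 51 in siControl TGF-β (82.3%, against 80.1%), 44 with set 1 (71.0%, against 62.7%) and 26 with set 2 (41.9%, against 41.5%). Regions called in all 4 libraries were 18 of 62 (29.0%), against 29.6% of all regions, and regions called in 1 library were 15 (24.2%), against 31.5%. A region is named gained where it was called in siControl TGF-β and not in untreated cells, and lost in the reverse case. Of the 51 siControl TGF-β regions 15 were gained (29.4%, 95% Wilson interval 18.7 to 43.0), against 36.9% of all such regions, and of the 44 untreated regions 8 were lost (18.2%, 9.51 to 32.0), against 18.4%. Both intervals include the share over all regions.

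The 62 regions lay in introns in 42 cases, between genes in 16, in untranslated exons in 2 and in coding exons in 2. Inside the gene body were 41 regions, and for 31 the nearest annotated start of any gene was that of the member gene itself. A summit within 2 kb of any annotated start was found in 13 regions (21.0%, 12.7 to 32.6), against 33.1% of all regions. The width of the regions was 128 to 416 bp with a median of 217.5 bp. Their median summit fragments were 23, 25, 23 and 21.5 in the order untreated, TGF-β, set 1 and set 2.

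**Figure D1:**
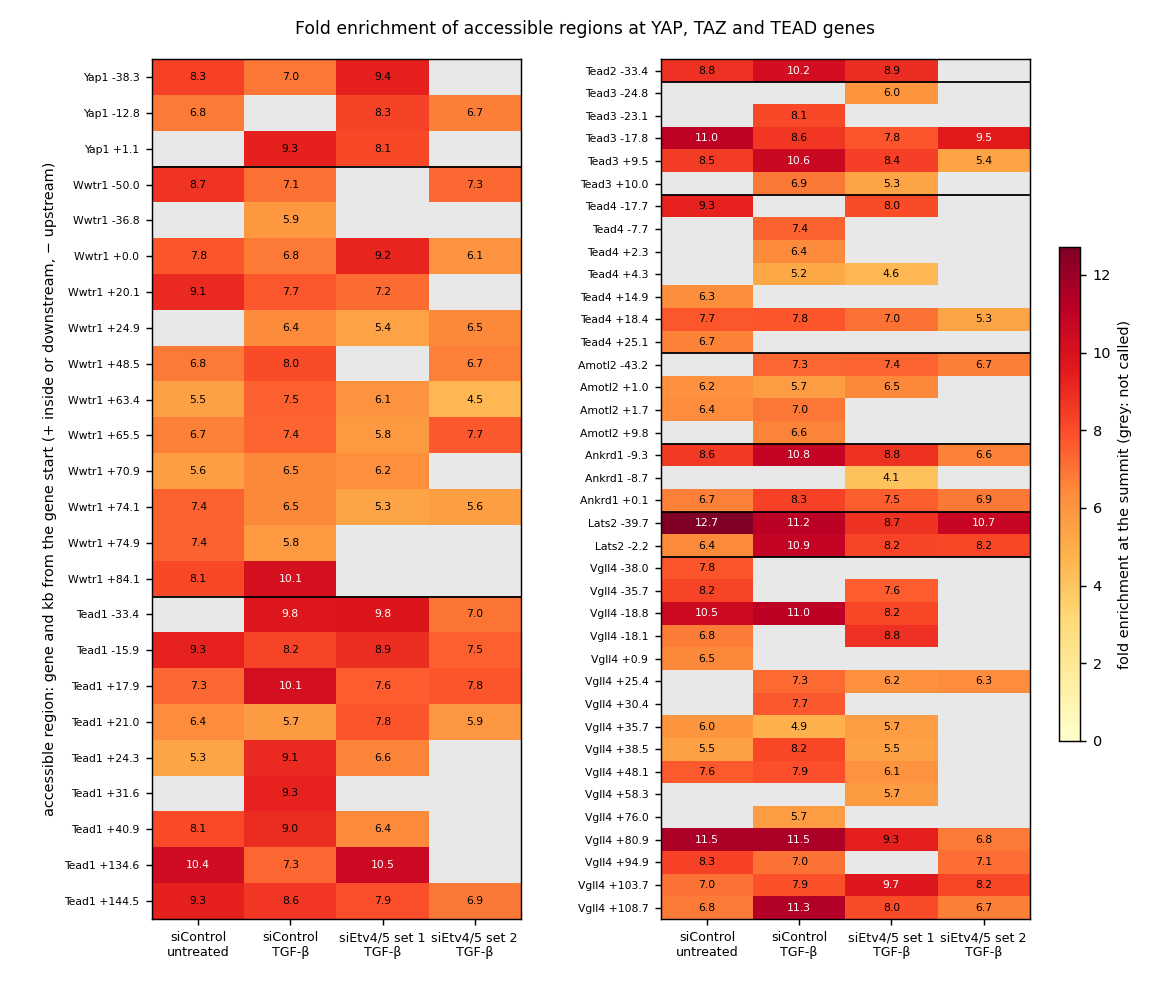
Fold enrichment at the summit (color and printed value) of each of the 62 regions (rows, named by gene and kb from the gene start) in the 4 libraries (columns), with grey for not called. The set 2 column is grey in most rows, since 26 regions were called there, and the highest value, 12.7, is at Lats2 -39.7 kb in the untreated library.

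The genes differed in how many regions they held. Vgll4 had 16 and Wwtr1 had 12, followed by Tead1 with 9, Tead4 with 7, Tead3 with 5, Amotl2 with 4, Yap1 and Ankrd1 with 3 each, Lats2 with 2 and Tead2 with 1. Per 100 kb of searched sequence, Vgll4 held 10.0 regions, more than 96.2% of 21911 protein-coding genes, Tead3 held 7.23 (above 89.5%) and Wwtr1 7.05 (above 88.7%). Lats2 with 1.68 and Tead2 with 1.47 lay below the median of 1.97 over coding genes. Regions at an own promoter, within 2 kb of an annotated start of the gene, were found at 6 of the 10 genes in any library, where 43.0% of coding genes had one, and at 2 of 10 in all 4 libraries, where 24.1% did. The 2 genes were Wwtr1 and Ankrd1. Yap1, Amotl2, Vgll4 and Tead4 had a promoter region in some of the libraries, and Tead1, Tead2, Tead3 and Lats2 had none within 2 kb of a start.

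Yap1, the gene of the coactivator YAP (chr9:7931999-8004596, minus strand), had no region called in all 4 libraries. Its promoter region (chr9:8003404-8003556) lies in an intron, 1.12 kb downstream of the gene start. It was called in siControl TGF-β with 25 summit fragments (fold enrichment 9.30) and with set 1 with 25 fragments (8.13). It was not called in untreated cells, where about 13 fragments would have been needed, or with set 2, where about 14 would have been needed. Per relative depth, set 1 stood at 0.94 times siControl TGF-β (95% interval 0.52 to 1.71).

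The second Yap1 region (chr9:8017278-8017497, 12.8 kb upstream) showed another pattern. It was called in untreated cells with 13 fragments (fold enrichment 6.84), with set 1 with 22 (8.27) and with set 2 with 16 (6.73), but not in siControl TGF-β, where about 11 would have been needed. The region with the highest fold enrichment at this gene (chr9:8042773-8042971) lies 38.3 kb upstream, only 46 bp from the start of the neighbouring gene Cfap300. It had 16, 14 and 20 fragments in untreated, siControl TGF-β and set 1 (fold enrichment 8.31, 6.95 and 9.38) and was not called with set 2.

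Wwtr1, the gene of TAZ (chr3:57455649-57575910, minus strand), was called at all of its 12 regions in siControl TGF-β, at 10 in untreated cells and at 7 with each of the siRNA sets. The region over its start (chr3:57575763-57576055, in a coding exon) was open in every library. It had 31 summit fragments in untreated cells, 26 in siControl TGF-β, 33 with set 1 and 24 with set 2, with fold enrichments of 7.76, 6.83, 9.21 and 6.08. Fold enrichment was highest with set 1 and lowest with set 2. Per relative depth, siControl TGF-β was 0.79 times untreated (0.45 to 1.37), set 1 was 1.20 times siControl TGF-β (0.69 to 2.08) and set 2 was 0.73 times (0.40 to 1.32), so each of these intervals includes 1. The other 3 regions called in all libraries lay between 63.4 and 74.1 kb inside the gene, with 21 to 36 fragments.

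The highest fold enrichment at Wwtr1 was reached in an intron 84.1 kb inside the gene (chr3:57491724-57491918). This region had 22 fragments in untreated cells (fold enrichment 8.13) and 33 in siControl TGF-β (10.1), and was called with neither siRNA set, where about 15 fragments would have been needed with each. A neighbouring intronic region at +74.9 kb showed the same calls, with 34 and 30 fragments, and about 20 and 21 would have been needed with set 1 and set 2. Both regions thus had more fragments in the siControl libraries than those numbers. Across the series, 3 of the 36 regions at these genes that were called in both siControl libraries were called with neither set (8.33%, 2.87 to 21.8), against 13.9% of all such regions, and the third was Amotl2 +1.7 kb.

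Gains at Wwtr1 with TGF-β were 2. At +24.9 kb (chr3:57550938-57551182) there were 30 fragments in siControl TGF-β, 23 with set 1 and 26 with set 2, and no call in untreated cells, where about 16 would have been needed. The other, 36.8 kb upstream, had 14 fragments in siControl TGF-β alone, little above the 12 to 13 that the other libraries needed. At +63.4 kb (chr3:57512341-57512631), the fragments were 24, 36, 26 and 21, highest in siControl TGF-β, and set 2 stood at 0.46 times siControl TGF-β per relative depth (0.25 to 0.81). Over all regions called in both libraries, the set 2 value was lower at 96.7%, and the interval lay below 1 at 33.2%. The set 2 ratios at the genes below have the same background.

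**Figure D2:**
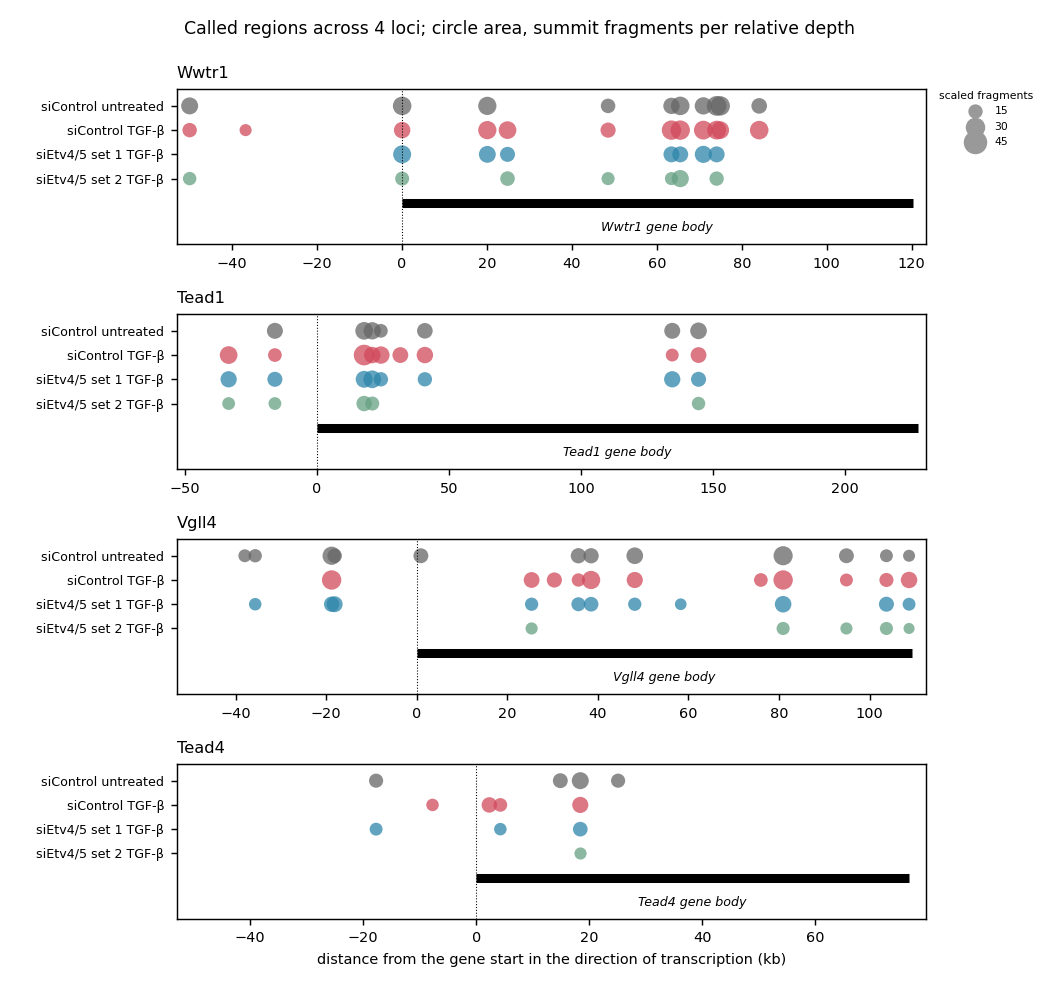
Called regions along Wwtr1, Tead1, Vgll4 and Tead4 by distance from the gene start in kb (x axis) in each library (rows), with circle area showing summit fragments divided by relative depth and the black bar showing the gene body. At Wwtr1 the siControl TGF-β row holds 12 circles and the rows of set 1 and set 2 hold 7 each.

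The TEAD genes encode the DNA-binding partners of YAP and TAZ. Together they had 22 regions. Of these, 14 were called in untreated cells (61.9% of all regions), 18 in siControl TGF-β (80.1%), 16 with set 1 (62.7%) and 8 with set 2 (41.5%). Of the 22, 7 were called in all libraries (29.6% of all regions) and 7 in 1 library (31.5%). Gained with TGF-β were 7 of the 18 (36.9% of all such regions), and 3 of the 14 were lost (18.4%).

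At Tead1 (chr7:112679318-112906807, plus strand), all 9 regions were called in siControl TGF-β, 7 in untreated cells, 8 with set 1 and 5 with set 2. Fold enrichment was highest in an intron 134.6 kb inside the gene (chr7:112813791-112814147). Its fragments numbered 23, 16 and 27 in untreated, siControl TGF-β and set 1, with fold enrichments of 10.4, 7.34 and 10.5, and it was not called with set 2. The value was thus lowest of the 3 in siControl TGF-β, although set 1 over siControl TGF-β was 1.59 with an interval of 0.83 to 3.16 that includes 1.

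In the first intronic cluster of Tead1, siControl TGF-β was highest at some regions and not at others. The region at +17.9 kb (chr7:112697048-112697363), which holds the paired AP-1 letters shown above, had 28 fragments in untreated cells, 41 in siControl TGF-β, 29 with set 1 and 29 with set 2. Fold enrichment there was 7.28, 10.1, 7.57 and 7.79, so that siControl TGF-β stood above the other libraries. Per relative depth, siControl TGF-β was 1.38 times untreated (0.83 to 2.31), set 1 was 0.67 times siControl TGF-β (0.40 to 1.10) and set 2 was 0.56 times (0.33 to 0.92). At +24.3 kb, the fold enrichment was 5.28, 9.09 and 6.60 in untreated, siControl TGF-β and set 1, with 17, 29 and 21 fragments. TGF-β over untreated was 1.60 there (0.85 to 3.11), an interval that includes 1, as at +17.9 kb. The region between them at +21.0 kb, with a TEAD match near its summit, did not follow this order, and had 27, 26, 32 and 24 fragments. At +40.9 kb there were 22, 26 and 21 fragments in untreated, siControl TGF-β and set 1. TGF-β over untreated was 1.11 at this last region (0.60 to 2.05).

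TGF-β gains at Tead1 were an upstream region at -33.4 kb (chr7:112645819-112646103) and an intronic one at +31.6 kb (chr7:112710825-112711058). The former had 30 fragments in siControl TGF-β, 27 with set 1 and 20 with set 2, where an untreated call would have needed about 13. The latter had 24 fragments in siControl TGF-β and no call elsewhere, where about 12 to 13 would have been needed. No Tead1 region lay within 2 kb of an annotated Tead1 start.

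Tead2 (chr7:45215753-45233644, plus strand) had a single region, 33.4 kb upstream and 1213 bp from the start of Pth2. It held 17, 21 and 19 fragments in untreated, siControl TGF-β and set 1, and was not called with set 2. No region lay in the Tead2 gene body.

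Tead3 (chr17:28331671-28350817, minus strand) had 5 regions. The highest fold enrichment was upstream at -17.8 kb (chr17:28368531-28368759), where the values were 11.02, 8.61, 7.78 and 9.53 in untreated, siControl TGF-β, set 1 and set 2 (22, 21, 17 and 22 fragments). Of the gained regions, that at +10.0 kb had 21 fragments in siControl TGF-β and 18 with set 1, and that at -23.1 kb had 21 in siControl TGF-β alone. The intronic region at +9.5 kb had 27, 33, 29 and 18 fragments, and its set 2 value was 0.43 times that of siControl TGF-β per relative depth (0.23 to 0.79). The remaining region, at -24.8 kb, was called with set 1 alone with 15 fragments, and the upstream regions lie closer to the start of Tulp1 than to that of Tead3.

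Tead4 (chr6:128224288-128300823, minus strand) had few regions that stayed called. Of its 7 regions, 3 were gained with TGF-β, 3 were lost, and 1, at +18.4 kb (chr6:128282216-128282631), was called in all libraries with 26, 25, 22 and 18 fragments. Its promoter region, 136 bp from an internal Tead4 start (chr6:128275677-128275804), was called in untreated cells alone with 18 fragments (fold enrichment 6.65), where the other libraries needed about 14 to 15. The highest fold enrichment was upstream at -17.7 kb, 9.29 in untreated cells and 8.04 with set 1 (18 and 17 fragments), with no call in siControl TGF-β or set 2. By summit fragments, the gained region with the most was at +2.3 kb, with 23 in siControl TGF-β alone, and the lost region with the most was at +14.9 kb, with 20 in untreated cells alone. Over all 6 gained or lost regions of Tead4 the called libraries held 15 to 23 fragments, where about 10 to 17 would have been needed in the libraries without a call.

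Ankrd1, which encodes a cardiac ankyrin repeat protein and is a classical direct target of YAP and TEAD (chr19:36111961-36120099, minus strand), had the region with the most fragments. At -9.3 kb (chr19:36129259-36129605), there were 38 summit fragments in untreated cells, 51 in siControl TGF-β, 46 with set 1 and 31 with set 2. Fold enrichment was 8.58, 10.8, 8.75 and 6.63. The siControl TGF-β library was highest and set 2 was lowest. Per relative depth, TGF-β over untreated was 1.26 (0.81 to 1.97), set 1 over siControl TGF-β was 0.85 (0.56 to 1.29), and set 2 over siControl TGF-β was 0.48 (0.30 to 0.76).

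The promoter region of Ankrd1 (chr19:36119863-36120223, summit 74 bp inside the gene in the untranslated exon) was likewise called in all libraries. It had 27, 39, 39 and 38 fragments and fold enrichments of 6.67, 8.33, 7.53 and 6.87 in untreated, siControl TGF-β, set 1 and set 2. The untreated library was lowest in fragments, and TGF-β over untreated was 1.36 per relative depth (0.81 to 2.30). A pair of TEAD matches lies here, shown as short stretches on the minus strand of mm10 at chr19:36120040-36120063 and chr19:36119953-36119976, with the TEAD letters in capitals.
Ankrd1 gene start, match 1: actgccaaaGGAATGaccctctca
Ankrd1 gene start, match 2: actaagtctGGAATGaaaattcac

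A weak region at -8.7 kb was called with set 1 alone, with 21 fragments and a fold enrichment of 4.12, the lowest of any region at these genes. The other libraries would have needed about 18 to 21 fragments there.

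Amotl2, which encodes an angiomotin that holds YAP at cell junctions and is induced by YAP (chr9:102716672-102733418, plus strand), had 4 regions. The promoter region over a transcript start (chr9:102717579-102717804) had 23, 24 and 27 fragments in untreated, siControl TGF-β and set 1, with fold enrichments of 6.17, 5.66 and 6.50. The one next to it (chr9:102718317-102718482) had 24 and 30 fragments in untreated and siControl TGF-β (6.36 and 6.95) and was called with neither set. Neither promoter region was called with set 2, which would have needed about 18 and 19 fragments.

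The distal Amotl2 region with TEAD and AP-1 letters (chr9:102673422-102673746, 43.2 kb upstream) was gained with TGF-β and stayed called with both siRNA sets. It had 15, 16 and 15 fragments in siControl TGF-β, set 1 and set 2 and fold enrichments of 7.33, 7.39 and 6.72, and was not called in untreated cells, where about 10 would have been needed. The other gained region, at +9.8 kb, had 18 fragments in siControl TGF-β alone.

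Lats2, the Hippo kinase gene (chr14:57689662-57758388, minus strand), was called at both of its regions in every library. The nearer one (chr14:57760404-57760815) lies 2182 bp upstream of the gene start, just beyond the 2 kb limit used for promoters. There were 15 fragments in untreated cells, 31 in siControl TGF-β, 25 with set 1 and 27 with set 2, with fold enrichments of 6.44, 10.9, 8.20 and 8.18. The untreated library was lowest by each measure. Per relative depth, siControl TGF-β was 1.94 times untreated (1.02 to 3.87), the largest such ratio among the 36 regions called in both libraries. The interval lay above 1 at this 1 region of 36, against 2.12% of all regions called in both, and below 1 at 0 of 36, against 0.149%.

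The other Lats2 region (chr14:57797951-57798264) lies 39.7 kb upstream, 48 bp from the start of Sap18. It held 28, 24, 19 and 27 fragments in untreated, siControl TGF-β, set 1 and set 2. Its fold enrichment of 12.7 in untreated cells was the highest value at any of the genes, and 11.2, 8.75 and 10.7 were found in the other libraries.

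**Figure D3:**
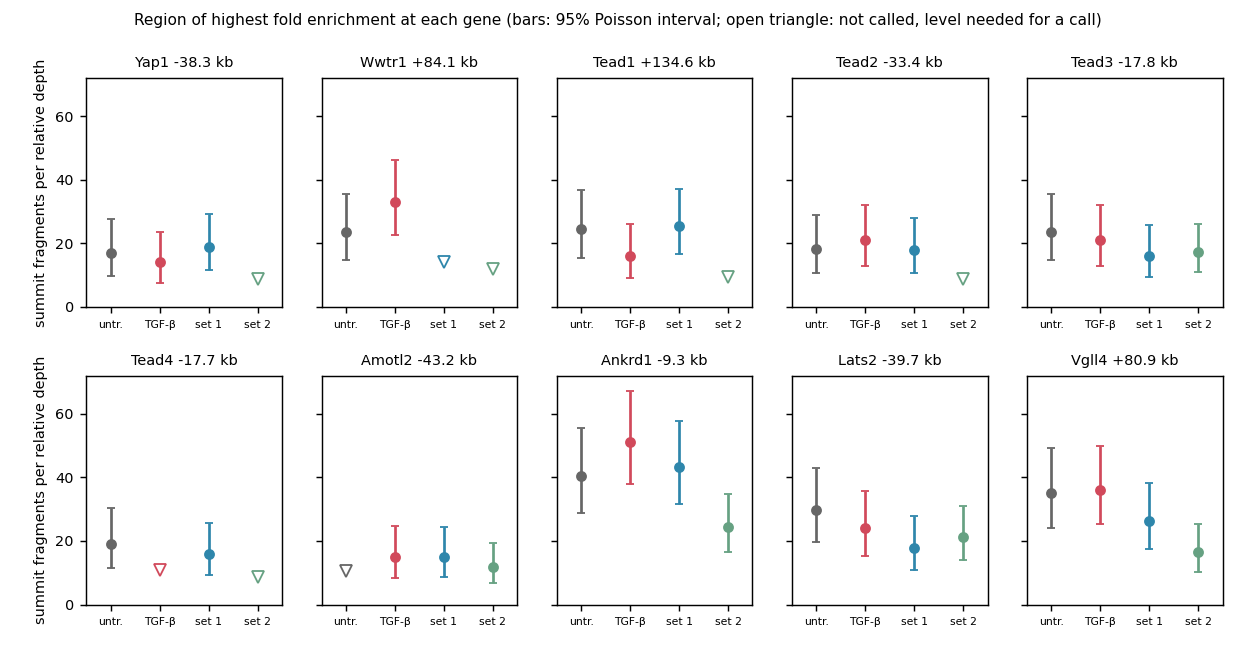
Summit fragments divided by relative depth (y axis) in the 4 libraries (x axis) at the region of highest fold enrichment of each gene. Points carry 95% Poisson intervals, open triangles show the estimated level needed for a call where none was made, and the highest points belong to Ankrd1 -9.3 kb with 38, 51, 46 and 31 fragments before scaling.

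Vgll4 encodes a cofactor that competes with YAP for TEAD binding and represses its targets. The gene (chr6:114860628-114969994, minus strand) had 16 regions, of which 12 were called in untreated cells, 11 in siControl TGF-β, 11 with set 1 and 5 with set 2. Gained regions were 3, lost ones 4, and 3 were called in all libraries. It was the only gene besides Yap1 and Tead4 with lost regions.

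The promoter region at an internal Vgll4 start (chr6:114921767-114921941, 48.1 kb inside the gene) had 25, 25 and 18 fragments in untreated, siControl TGF-β and set 1 (fold enrichment 7.63, 7.94 and 6.07) and was not called with set 2. The region near the outermost start (chr6:114968981-114969110) was called in untreated cells alone, with 20 fragments (6.48), where about 15 to 16 would have been needed elsewhere. The highest fold enrichment lay 80.9 kb inside the gene (chr6:114888992-114889284), with 11.5, 11.5, 9.34 and 6.85 in untreated, siControl TGF-β, set 1 and set 2. Fragments there were 33, 36, 28 and 21, equal in both siControl libraries within counting error and lowest with set 2, which stood at 0.46 times siControl TGF-β per relative depth (0.25 to 0.81).

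At the 3′ end of Vgll4, the region at +108.7 kb (chr6:114861164-114861407), which holds an AP-1 match, had 13, 26, 17 and 15 fragments and fold enrichments of 6.84, 11.3, 8.04 and 6.72. It was highest in siControl TGF-β, at 1.88 times untreated per relative depth (0.93 to 3.98), and set 2 was at 0.45 times siControl TGF-β (0.22 to 0.89). The neighbouring region at +103.7 kb, which holds both TEAD and AP-1 letters, was flatter, with 15, 19, 23 and 21 fragments. Among the Vgll4 regions gained or lost with TGF-β, that at -18.1 kb had the most summit fragments in any library. It was lost, with 19 fragments in untreated cells and 26 with set 1. The gained region with the most was at +25.4 kb, with 24, 18 and 18 in siControl TGF-β, set 1 and set 2. The other gained or lost regions at Vgll4, and the 1 called with set 1 alone, reached 14 to 22 fragments.

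The regions gained with TGF-β in siControl cells were at Tead4 and Vgll4 (3 each), Wwtr1, Tead1, Tead3 and Amotl2 (2 each) and Yap1 (1). The lost ones were at Vgll4 (4), Tead4 (3) and Yap1 (1). At the 36 regions called in both libraries the median log2 ratio of fold enrichment was 0.07 (range -0.50 to 0.78, 20 higher and 16 lower), against 0.12 over all. A rise of at least 1.5 times in fragments per relative depth was found at 3 of 36 (10.6% of all), which were Lats2 -2.2 kb, Vgll4 +108.7 kb and Tead1 +24.3 kb, and a fall of that size at 1 of 36 (2.04% of all), which was Tead1 +134.6 kb.

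With siEtv4/5, 14 of the 51 siControl TGF-β regions were absent with set 1 (27.5%, 17.1 to 40.9), against 33.7% of all, and 26 of 51 were absent with set 2 (51.0%, 37.7 to 64.1), against 53.6%. When each list was shortened to its 14925 most significant peaks, 40.0% were absent with set 1 (23.4 to 59.3, against 31.4% of all) and 48.0% with set 2 (30.0 to 66.5, against 33.4%), and these intervals include the share over all regions too. With set 1, 5 of the 14 absent regions were at Wwtr1, which held 12 of the 51 siControl TGF-β regions. The shares over all regions, 33.7% with set 1 and 53.6% with set 2, stand beside 5 of 12 at Wwtr1 with each set. Of 44 regions called with set 1, 7 were not called in siControl TGF-β (15.2% of all), and with set 2 this was 1 of 26 (10.3% of all), the region 12.8 kb upstream of Yap1. At regions called in both libraries, the median log2 ratio of fold enrichment to siControl TGF-β was -0.19 with set 1 (37 regions, 10 higher and 27 lower) and -0.22 with set 2 (25 regions, 7 higher and 18 lower), against -0.16 and -0.38 over all regions. In fragments per relative depth, the set 2 value was lower at 25 of 25 (96.7% of all), with a median log2 ratio of -0.47 against -0.67, and the set 1 value at 28 of 37 (77.2% of all). A fall of at least 1.5 times in fragments per relative depth was seen at 4 of 37 with set 1 (15.1% of all) and at 10 of 25 with set 2 (59.4% of all), and a rise at 1 of 37 (0.710%) and 0 of 25 (0.0451%). The interval of the ratio lay below 1 at 0 of 37 regions with set 1 (4.05% of all) and at 8 of 25 with set 2 (33.2% of all), and above 1 at 0 of 37 (0.0578%) and 0 of 25 (0.00751%). Because both sets are compared with the same siControl TGF-β library, and TGF-β with untreated uses that library too, the comparisons are not independent.

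**Figure D4:**
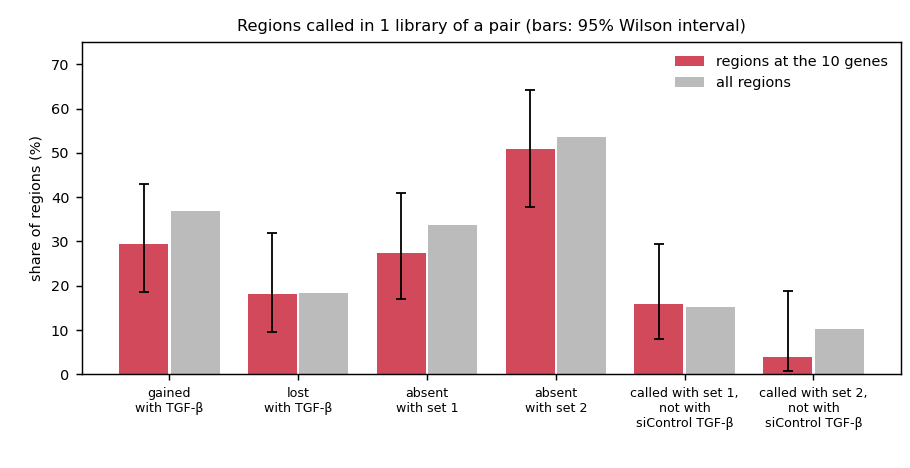
Share of regions (y axis, %) called in 1 library of a pair and not in the other, for the 10 genes (red, with 95% Wilson intervals) and for all regions (grey). The intervals of the 10 genes include the grey bar in each of the 6 comparisons, with 29.4% against 36.9% gained and 51.0% against 53.6% absent with set 2.

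Of the 15 gained regions, 8 were called with neither siRNA set (53.3%, 30.1 to 75.2), against 54.4% of all gained regions, and 4 were called with both (26.7%, 10.9 to 52.0), against 12.8%. The 4 were Wwtr1 +24.9 kb, Tead1 -33.4 kb, Amotl2 -43.2 kb and Vgll4 +25.4 kb, each with at least 15 fragments in all TGF-β libraries. Of the 8 lost regions, 4 were called again with a set (32.3% of all lost regions), and these were Yap1 -12.8 kb, Tead4 -17.7 kb, Vgll4 -18.1 kb and Vgll4 -35.7 kb. At the 18 regions called throughout, fold enrichment was highest in siControl TGF-β at 8, in untreated cells at 6, with set 1 at 3 and with set 2 at 1. Over all such regions it was highest in siControl TGF-β at 55.3% and in untreated cells at 24.2%.

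The letters of 4 transcription factor families were counted on both strands in the 300 bp around each summit. TEAD letters (GGAATG) were present in 18 of 62 regions (29.0%, 19.2 to 41.3) and in 21.8% of all regions. AP-1 letters (TGANTCA) were present in 25 (40.3%) against 40.4%, ETS letters (CCGGAAG or CAGGAAG) in 15 (24.2%) against 22.3%, and RUNX letters (TGTGGT) in 16 (25.8%) against 25.8%. Words of different families can share end letters where they adjoin. The longer TEAD word GGAATGT, which contains GGAATG, was present in 8 regions (12.9%) against 7.46%. Outside promoters, TEAD letters were in 15 of 49 regions (30.6%, 19.5 to 44.5) against 25.1%, and ETS letters in 13 of 49 (26.5%, 16.2 to 40.3) against 18.9%. TEAD letters were found at Tead1 in 4 of 9 regions, Vgll4 in 3 of 16, Wwtr1, Tead3, Tead4, Amotl2 and Ankrd1 in 2 each and Lats2 in 1, and at no region of Yap1 or Tead2. By role, they were in 5 of the 9 regions of the targets and feedback genes and in 2 of the 15 of the coactivator genes. Both TEAD and AP-1 letters were in 6 of 62 regions (9.68%) against 9.91% of all.

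**Figure D5:**
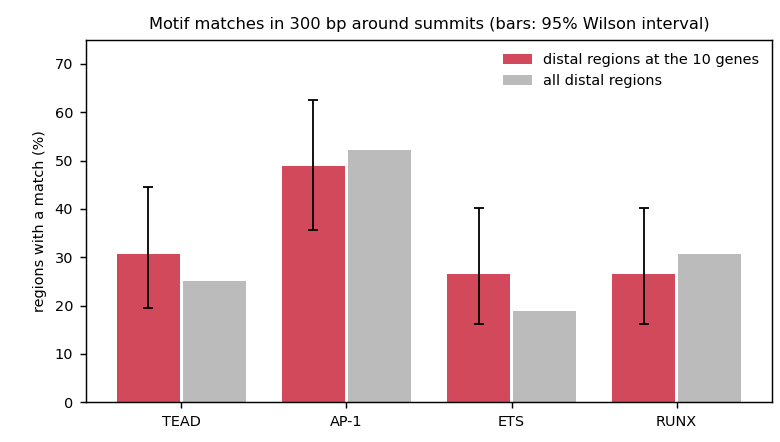
Share of regions outside promoters (y axis, %) with the letters of TEAD, AP-1, ETS and RUNX factors within 300 bp around the summit, for the 10 genes (red, with 95% Wilson intervals, 49 regions) and for all such regions (grey). The intervals include the grey bars for each factor, with 30.6% against 25.1% for TEAD.

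A difference in calling by TEAD letters was noticed after the values were seen and is given as a description. Of the 18 regions with TEAD letters 10 were called in all 4 libraries (55.6%), and of the 44 without 8 were (18.2%). Over all regions the shares were 28.6% with and 29.8% without. For AP-1 letters the counts were 8 of 25 with and 10 of 37 without. The letters of ETS factors, the family of the siRNA targets, were in 5 of the 14 regions absent with set 1 and in 8 of the 37 still called. With set 2 they were in 9 of the 26 absent and in 4 of the 25 still called. Over all regions, ETS letters were less frequent in the absent regions, in 20.0% against 24.8% with set 1 and 19.7% against 27.2% with set 2.

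The RefSeq promoter windows, 300 bases around each gene's annotated starts in GRCm38.p6, were matched by symbol for 8 of the 10 genes, with 12 windows. Tead1 and Tead4 had no entry. TEAD letters were in a window of 7 of the 8 genes (Yap1, Wwtr1, Tead3, Amotl2, Ankrd1, Lats2 and Vgll4), against 16.6% of 27025 genes. Windows of Tead3 held as many as 3 matches. AP-1 letters were in none of the 8 (8.97% of all genes), ETS letters in 2, Ankrd1 and Lats2 (23.1%), and RUNX letters in 2, Amotl2 and Ankrd1 (18.9%). A FAIRE-positive region overlapped the windows of Wwtr1 and Ankrd1 in all 4 libraries and that of Amotl2 in all but set 2. None overlapped those of Yap1, Tead2, Tead3, Lats2 or Vgll4. In the 300 bp around the summit, TEAD letters were present at these Ankrd1 and Amotl2 regions and absent at the Wwtr1 region. These matches describe letters, and no binding was measured here.

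Other genes of the pathway were counted in the same way. The 19 genes for kinases and scaffolds, which restrain YAP and TAZ or link them to junctions, held 85 regions, of which 57, 69, 52 and 41 were called in untreated, siControl TGF-β, set 1 and set 2. Of their siControl TGF-β regions 31.9% were gained, 34.8% were absent with set 1 and 46.4% with set 2, where 36.9%, 33.7% and 53.6% of all regions were. A promoter was called in all 4 libraries at 6 of the 19 genes (24.1% of coding genes) and in at least 1 library at 12 (43.0% of coding genes). Wwc1 with 14 regions, Amotl1 with 11 and Wwc2 with 9 held the most, and Lats1, the paralog of Lats2, held 1, in both siControl libraries and with neither siRNA set.

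The 10 further YAP targets held 70 regions, called in 38, 55, 43 and 30 cases in the same order. Of their siControl TGF-β regions 27 of 55 were gained (49.1%, against 36.9% of all regions), and 34.5% and 50.9% were absent with set 1 and set 2 (33.7% and 53.6% of all). Among the 27 gained regions, 8 were at Asap1 and 5 at Cyr61. The lost share was above that of all regions too, at 10 of 38 untreated regions (26.3%, against 18.4%). No interval was computed for the shares of this list, and no difference was tested. Asap1 had 21 regions and Myof 11, of which 7 were called throughout. The promoter of Ctgf (Ccn2), a matricellular target of YAP and of TGF-β, was called in every library with 21, 21, 31 and 25 fragments, while that of Cyr61 (Ccn1) was called in siControl TGF-β with 36 and set 1 with 21. Axl, a receptor tyrosine kinase gene, had its promoter called with 21 and 26 fragments in the siControl libraries and with neither siRNA set, and Arhgef17 had the same calls. The promoter of F3 was called in untreated and set 1, that of Nt5e in all but set 2, and those of Asap1 and Gadd45a throughout. In all, a promoter was called in all 4 libraries at 3 of the 10 genes (24.1% of coding genes) and in any library at 8 (43.0%). Of the 3 other Vgll cofactor genes, Vgll1 had no region, Vgll2 had 1 and Vgll3 had 2.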

How the data were processed

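FAIRE DNA of EpRas cells had been sequenced on an Ion Proton, and the submitters' processing notes name Bowtie, MACS2 2.1.0 and mm10. The study's methods give trimmed reads, bowtie2 and an older MACS2 release, so the version behind these lists is uncertain. The study's methods describe biological replicates for FAIRE-seq, and 1 list per group was analysed here, so each deposited list may combine them. The lists were called by the authors at a q-value limit of 0.0001. They hold a fold enrichment (the authors' ratio of summit signal to local background with a pseudocount of 1), a deposited -log10 p-value and a -log10 q-value per summit, a deposited whole-number score made from the -log10 q-value, and the deposited summit offset in bp. The score was not used.

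Summit fragments and local background were solved from the fold enrichment and the Poisson -log10 p-value, and a solution within 0.001 was found for 100% of peaks. Relative depth was the lowest background per fragment length. Peaks overlapping by at least 1 bp were merged, and the most significant peak per library was kept. Gained and lost mean called in 1 siControl library and not in the other. Intervals are Wilson for shares and exact binomial for ratios of fragments, at 95%. The estimate of the fragments needed for a call was checked at 2000 regions called in all libraries. It was within 2 of the number from the library's own background at 95.55% to 99.85% of them. Where fewer libraries had a call, the estimate rested on fewer backgrounds, and on 1 at regions called in 1 library. Its accuracy there was not measured. The recovery of fragments was tested on simulated data. Coordinates are mm10, counted from 1, and 0 peaks lay beyond a chromosome end of GRCm38.p6. Genes and exons are from GENCODE vM21 basic, and promoter windows from RefSeq. Python 3.11.15, numpy 2.4.6, scipy 1.17.1, pandas 2.3.3 and pysam 0.24.0 were used.

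With 1 list per group no test was run. For every gene, all regions at its own promoter, the region of highest fold enrichment and up to 2 regions that were gained, lost or called in 1 library were named, and other named regions, the limit of 1.5 times and the split by TEAD or ETS letters were chosen after the values were seen. The genes and lists were chosen with earlier results of these data known. Alternatives were other windows, nearest-gene assignment, a stricter q-value, equal list lengths, a larger overlap, scaled fragments, other motif settings and a narrower promoter.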

Additional observations from a re-analysis of the deposited data

How the results depend on the processing

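Of 66 alternative values for 13 results, 55 stayed within their interval or within 1.5 times the count, 11 moved and 0 reversed. Counting only regions whose nearest gene start was the member left 22, 26, 23 and 12 regions (untreated, siControl TGF-β, set 1, set 2). With the 14925 most significant peaks of each library, 26, 25 and 25 regions remained called in untreated, siControl TGF-β and set 1, and 38.5% were lost with TGF-β (34.4% of all regions), against 18.2% with whole lists. Over all regions, the share absent with set 2 was then 33.4%, against 53.6%, while at these genes it was 48.0%, against 51.0%. The lost share was 9.38% with 10 kb upstream. With scaled fragments, the median log2 ratio of set 2 to siControl TGF-β was -0.47 (all regions -0.67). The longer word GGAATGT was in 12.9% of regions. No paired analysis was possible because each group had 1 list. The lowest number of summit fragments at a peak was 10 to 12, depending on the library.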
